A study of Mus musculus with 12 samples.

Results

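Messenger RNA for 7 potassium channel subunits was examined in lymph node (LN) T cells of mice: *Kcnj8*, *Kcnj15*, *Abcc9*, *Kcna3*, *Kcnn4*, *Kcnk5* and *Kcnk6*. The 7 genes were found by symbol among the 49585 genes of the RNA-seq count table, and 6 of the 7 had enough counts to be tested, *Abcc9* being the exception. *Kcnj8* and *Kcnj15* were picked because their counts differed strongly, and in opposite directions, between helper-lineage and cytotoxic-lineage samples of this same table. Their values are therefore given as a description, with no test. The other members are further potassium channel subunits. They were named with earlier results of these data known, so their tests are not independent of the choice. A wider list of 94 protein-coding potassium channel genes (symbols that begin with Kcn, plus *Abcc8* and *Abcc9*, without the chosen pair) shows where they stand.

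The study set 4 groups side by side, each with 3 samples of pooled sorted LN T cells from mice of 6 to 10 weeks, male by the labels although the study's methods name both sexes: helper (CD4+) and cytotoxic (CD8+) cells from C57BL/6 (B6) mice, and their counterparts from CD8Dual mice, named CD8.1 and CD8.2. In homozygous CD8Dual mice a knock-in makes *Cd4* a source of CD8 (CD8α.1 paired with CD8β) and not of CD4 protein. A second form of CD8, CD8α.2 with CD8β, comes from their normal *Cd8* genes. CD8.1 cells, which carry the co-receptor made from the *Cd4* loci, are the helper-lineage cells of these mice, and CD8.2 cells are the cytotoxic-lineage cells. The comparison within CD8Dual mice thus asks how the lineages differ when both bear CD8. All groups were sorted on TCRβ and CD62L, a homing receptor that is high on naive T cells. The study's methods add a gate against CD44, a marker of experienced cells, which the labels do not name. Nothing in the labels says which samples came from separate mice, so P values measure the spread between these samples. CD8.1 and B6 CD4+ cells differ in genotype and in the co-receptor they bear, as do CD8.2 and B6 CD8+ cells in genotype, and these features cannot be told apart from the strain.

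The total count per sample was 18667474 to 37110502, with CD8.2 replicate 3 the deepest and CD8.2 replicate 2 the shallowest. The co-receptor and lineage genes matched the labels. *Cd4* was at 969 CPM (counts scaled to a common library size) in B6 CD4+ cells and 0.244 CPM in B6 CD8+ cells, and *Cd8a*, which encodes the CD8α chain, was at 1.17 and 1423 CPM. In CD8.1 cells *Cd4* was at 49.7 and *Cd8a* at 192 CPM. *Zbtb7b*, which encodes the helper factor ThPOK, was at 159 CPM in B6 CD4+, 154 in CD8.1, 0.931 in B6 CD8+ and 1.91 in CD8.2 cells. *Runx3*, which encodes the cytotoxic factor Runx3, was at 57.0, 47.5, 102 and 74.2 CPM in the same order. CD8.1 replicate 1 stood apart slightly from its group, with a mean correlation of 0.982 with the other CD8.1 samples against 0.985 for each of those, and values without it are given below for *Kcna3*, *Kcnn4*, *Kcnk5*, *Kcnk6*, *Kcnk7* and *Kcnq5*.

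Potassium channels let K+ leave the cell and so keep the inside of a T cell electrically negative, which drives calcium entry through the CRAC channel after the T cell receptor is engaged. In T cells the work is usually ascribed to Kv1.3, a voltage-gated channel encoded by *Kcna3*, and to KCa3.1, a channel opened by calcium-bound calmodulin and encoded by *Kcnn4*. *Kcnj8* encodes Kir6.1, an inward rectifier that forms ATP-sensitive channels with the sulfonylurea receptor SUR2, the product of *Abcc9*, and is best known from pericytes and vascular smooth muscle. *Kcnj15* encodes Kir4.2, an inward rectifier known from kidney epithelium, and *Kcnk5* and *Kcnk6* encode background channels of the K2P family.

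In mm10 (GRCm38, GENCODE M21 annotation), *Kcnj8* (ENSMUSG00000030247.9) lies on the minus strand at chr6:142564837-142571614, and *Abcc9* (ENSMUSG00000030249.15) lies on the same strand at chr6:142587862-142702315, with 16247 bases between them. *Kcnj15* (ENSMUSG00000062609.13) lies on the plus strand at chr16:95257558-95300260. The 250 bases before the annotated start of each of the chosen pair are shown because these genes had opposite lineage patterns. They are from RefSeq (GRCm38.p6), are written 5′ to 3′ on the strand of the gene, and lie at chr6:142571615-142571864 (minus strand) and chr16:95257308-95257557 (plus strand). Capitals mark CpG dinucleotides, the sites of DNA methylation.

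Kcnj8: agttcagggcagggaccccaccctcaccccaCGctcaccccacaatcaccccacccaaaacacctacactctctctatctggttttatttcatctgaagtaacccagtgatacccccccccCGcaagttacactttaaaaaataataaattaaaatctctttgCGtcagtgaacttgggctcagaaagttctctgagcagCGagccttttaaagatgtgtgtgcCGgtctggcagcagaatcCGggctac
Kcnj15: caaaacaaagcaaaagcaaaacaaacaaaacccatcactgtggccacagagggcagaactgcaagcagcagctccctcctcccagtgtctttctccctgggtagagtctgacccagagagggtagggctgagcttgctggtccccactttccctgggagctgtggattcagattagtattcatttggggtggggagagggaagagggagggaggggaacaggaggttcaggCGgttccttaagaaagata

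The *Kcnj8* window held 6 CpG and 49.2% G+C, and the *Kcnj15* window 1 CpG and 53.2% G+C, against medians of 6 CpG and 52.4% over 32851 RefSeq promoter windows of the same length. The core letters bound by Runx factors (TGTGGT, or ACCACA on the other strand) were in 14% of all windows, and those bound by TCF1 and LEF1 (CTTTGA, or TCAAAG) in 13.8%. Neither motif was in the *Kcnj8* or the *Kcnj15* window. Of the 20 potassium channel genes with enough counts to be tested, 16 had at least 1 such window. The Runx letters were found for 3 genes (*Kcnf1*, *Kcnk7*, *Kcnn4*) and the TCF letters for 2 (*Kcna2*, *Kcnj16*). Some genes had more than 1 window (*Kcnj16* had 4), so these counts of genes cannot be set against the shares of windows. A match in letters is a description and not a binding site.

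*Kcnj8* messages were found in cytotoxic-lineage cells of both strains and were near or at 0 in helper-lineage cells. The B6 CD8+ samples held 98, 92 and 51 counts, or 4.01, 3.35 and 2.45 CPM. All 3 B6 CD4+ samples held 0 counts, which allows up to 3 counts, or 0.128 to 0.136 CPM, in each. Intervals and floors of this kind cover counting error only. The CD8.2 samples held 26, 22 and 51 counts (1.11, 1.22 and 1.49 CPM) and the CD8.1 samples 3, 7 and 3 counts (0.143, 0.310 and 0.142 CPM). Every cytotoxic-lineage sample was above every helper-lineage sample, and every B6 CD8+ sample was above every CD8.2 sample. The mean was 3.27 ± 0.782 CPM in B6 CD8+ cells (SD, n = 3), at least 24.9-fold higher than in B6 CD4+ cells taken at the floor of 3 counts per library. In CD8Dual mice the ratio of the means, CD8.2 to CD8.1, was 6.41, and the ratio of the summed counts was 6.49 with a 95% counting interval of 3.63 to 12.6. B6 CD8+ cells held 2.57 times the mean of CD8.2 cells, with a counting interval of 2.00 to 3.24 around the ratio of the summed counts, 2.54.

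*Kcnj15* had the opposite pattern. The CD8.1 samples held 28, 13 and 24 counts (1.34, 0.575 and 1.14 CPM), and all 3 CD8.2 samples held 0. The B6 CD4+ samples held 3, 8 and 10 counts (0.136, 0.345 and 0.425 CPM), and the B6 CD8+ samples 0, 0 and 2. Every helper-lineage sample was above every cytotoxic-lineage sample, and every CD8.1 sample was above every B6 CD4+ sample. The mean of 1.02 ± 0.395 CPM in CD8.1 cells (SD, n = 3) was at least 7.99-fold higher than in their CD8.2 counterparts at the floor of 3 counts per library. In B6 mice the ratio of summed counts, CD4+ to CD8+, was 11.1, with a counting interval of 2.72 to 97.8 because the lower group held 2 counts in all. The ratio of CD8.1 to B6 CD4+ means was 3.37, with a counting interval of 1.99 to 5.67 around the ratio of the summed counts, 3.29. Since the pair was picked on this table, the strain differences are no more independent of the choice than the lineage differences. In sorted bulk samples, fewer cells that express a gene and less RNA per cell cannot be told apart. *Kcnj15* also overlaps the antisense gene Gm49643 over 333 exonic bases, which was not analysed here, and use of strand in counting is not given in the sources used here.

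*Abcc9*, the SUR2 partner of Kir6.1, was near 0 where *Kcnj8* was highest. The B6 CD8+ samples held 0, 0 and 0 counts of *Abcc9* and the CD8.2 samples 0, 1 and 0. The CD8.1 samples held 4, 0 and 0, and the B6 CD4+ samples 0, 0 and 0, so that 5 counts were found in all 12 samples. No difference in *Abcc9* between groups was detectable at this depth.

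*Kcnj8* is a gene of pericytes, and the markers of such mural cells were close to 0 as well. Summed over 10 markers, the level was 0.851 to 2.27 CPM in the B6 CD4+ samples, 0.531 to 0.811 in CD8.1, 0.983 to 2.26 in B6 CD8+ and 0.889 to 1.08 in CD8.2. *Mcam* had the highest mean over all samples, at 0.564, 0.249, 0.516 and 0.436 CPM, and *Pdgfrb* was above it in B6 CD8+ cells alone. *Cspg4*, which encodes the pericyte proteoglycan NG2, had 0 counts in all 12 samples, *Rgs5* had 4 counts in all and *Des* had 2. Only *Mcam* and *Pdgfrb* could be tested. *Pdgfrb*, which encodes a growth factor receptor of mural cells, was lower in B6 CD4+ than in CD8+ cells (0.0152 against 0.648 CPM, edgeR adjusted P = 0.000492). Of these groups only B6 CD8+ was above the limit of the filter on counts, 0.443 CPM. This test is thus partly fixed by the filter and is given as a description. The direction of *Pdgfrb* in B6 mice is that of *Kcnj8*, and the part of mural cells in the *Kcnj8* counts was not tested. Of the endothelial and stromal markers, 8 of 10 could not be tested, and *Pecam1*, which T cells also express, made up nearly all of their summed level (190.5 CPM in B6 CD4+ and 119 in B6 CD8+ cells). The 2 tested, *Pecam1* and *Cdh5*, were higher in helper-lineage cells of both strains, where 11.4% (B6) and 14.9% (CD8Dual) of all tested genes were. For *Cdh5* the log2 fold changes were 2.23 and 2.72 (edgeR adjusted P = 0.0135 and 0.0121). In CD8.2 cells the 10 markers summed to 108.8 CPM, of which *Pecam1* gave 108.5, so *Cdh5* was under the filter's limit there. Its tests are thus partly fixed by the filter and are given as a description. The direction of *Pecam1* and *Cdh5* is that of *Kcnj15*, and the part of such cells in the *Kcnj15* counts was not tested.

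Most markers of natural killer (NK) and experienced T cells moved with *Kcnj8*. In B6 mice 6 of 7 tested NK markers and 8 of 10 memory and activation markers were lower in CD4+ than in CD8+ cells, against 11.7% of all 13118 tested genes. In CD8Dual mice 5 of 7 and 6 of 10 were lower in CD8.1 cells than in their CD8.2 counterparts, against 13.8% of all tested genes. *Cd44*, a marker of experienced cells, was the 1 marker called the other way, higher in CD8.1 cells (72.0 against 55.2 CPM, log2 0.38, edgeR adjusted P = 0.0211). The summed NK markers were at 647 to 750 CPM in the B6 CD8+ samples and 496 to 562 in CD8.2, against 14.6 to 17.9 in B6 CD4+ and at most 20.6 in CD8.1, led in cytotoxic-lineage cells by *Nkg7*, a granule protein gene that CD8+ cells also express (525 CPM in B6 CD8+ and 408 in CD8.2 cells). Of NK markers, *Ncr1*, which encodes the receptor NKp46, was at 0.0563 CPM in B6 CD8+ cells. The summed memory and activation markers were at 1711 to 2133 CPM in B6 CD8+ and 1217 to 1261 in CD8.2 samples, against 296 to 367 in B6 CD4+ and 567 to 641 in CD8.1. The samples were sorted on TCRβ, which NK cells lack. The gate against CD44 in the study's methods, which is aimed at experienced cells, is not named in the labels. The part of NK or experienced cells in the *Kcnj8* counts was not tested.

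Markers of regulatory T cells moved with *Kcnj15*. Of 10 tested markers, 9 were higher in CD8.1 cells than in their CD8.2 counterparts, where 14.9% of all tested genes were higher, and 9 were higher in CD8.1 cells than in CD4+ cells of B6 mice, where 6.94% of all were. In B6 mice 8 were higher in CD4+ than in CD8+ cells, against 11.4% of all tested genes. *Itgae* was the 1 marker called lower in helper-lineage cells, in B6 and in CD8Dual mice. *Foxp3*, which encodes the lineage factor of regulatory T cells, was at 38.3 CPM in B6 CD4+, 139.7 in CD8.1, 0.333 in B6 CD8+ and 1.24 in CD8.2 cells. The summed level was 218 to 320.0 CPM in B6 CD4+, 562 to 629 in CD8.1, 306 to 336 in B6 CD8+ and 164 to 165 in CD8.2 samples. In B6 CD8+ cells *Itgae*, the integrin gene that CD8+ cells also express, gave 246 CPM of that sum. B cell markers also moved, 6 of 8 being higher (*Cd79b* was lower) in B6 CD4+ cells and 3 of 8 higher in CD8.1 cells than in their CD8.2 counterparts. Their summed level was 77.7 to 95.9 CPM in B6 CD4+, 107 to 166 in CD8.1, 62.5 to 77.2 in B6 CD8+ and 73.4 to 132 in CD8.2 samples, led by *Cd79b* in every sample. The samples were sorted on TCRβ, which regulatory T cells bear and B cells lack. The part of either in the *Kcnj15* counts was not tested.

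**Figure D1:**
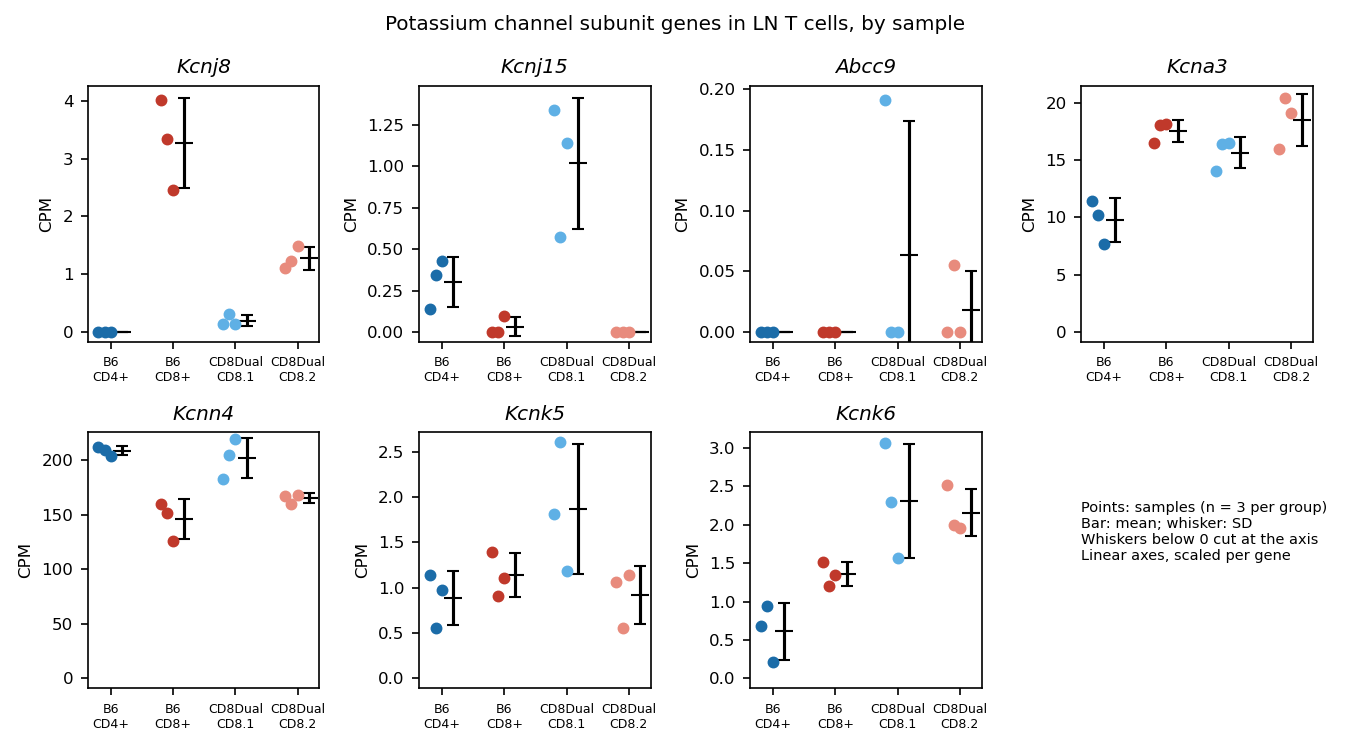
CPM of the 7 potassium channel subunit genes in each of the 12 samples (points), with the mean and SD of each group (bar and whiskers, n = 3), on linear axes scaled for each gene. *Kcnj8* is at 0 in all B6 CD4+ samples and between 2.45 and 4.01 CPM in B6 CD8+, *Kcnj15* is at 0 in all CD8.2 samples and between 0.575 and 1.34 CPM in CD8.1, and *Kcnn4* lies above 120 CPM in every sample.

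Around *Kcnj8*, 4 tested genes lay within 200 kb. *Ldhb*, which encodes a lactate dehydrogenase subunit and lies 56879 bases away, had the reverse pattern, at 42.3 CPM in B6 CD4+, 43.0 in CD8.1, 11.3 in B6 CD8+ and 13.2 in CD8.2 cells. Its log2 fold change, helper-lineage over cytotoxic-lineage, was 1.90 in B6 mice (edgeR adjusted P = 8.24e-08) and 1.70 in CD8Dual mice (3.48e-07). *Recql*, a DNA helicase gene, fell by 0.41 on the log2 scale from CD8.2 to CD8.1 cells (edgeR adjusted P = 0.00253), and *Golt1b* and *Cmas* passed the test in neither strain. The neighbours examined within 200 kb of *Kcnj15*, Gm7976 and *Erg*, did not have enough counts to be tested. The antisense genes Gm31641 and Gm49643, which overlap *Kcnj15*, were not among them. *Erg*, the nearest protein-coding gene, 58908 bases away, had 0 counts in all samples.

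By Pearson correlation of log2 CPM (prior count 2) over the 12 samples, the tested genes most like *Kcnj8* included *Zfp296* (r = 0.985), *Myo1f* (0.984), *D16Ertd472e* (0.983) and *Ly6c2* (0.981). *Ly6c2*, a surface marker gene of experienced CD8+ cells, was at 765 CPM in B6 CD8+, 407 in CD8.2, 16.6 in CD8.1 and 4.04 in B6 CD4+ cells. *Myo1f*, which encodes an unconventional myosin, was at 85.8, 41.1, 11.8 and 2.98 CPM in the same order. The genes most like *Kcnj15* were *Dnah7a* (0.970), *Stra6* (0.960), *Khdrbs3* (0.959), *Capg* (0.959) and *Matn2* (0.959), of which *Capg*, an actin-capping protein gene, was at 115 CPM in CD8.1, 58.7 in B6 CD4+, 24.3 in CD8.2 and 20.8 in B6 CD8+ cells. All samples share the 4 group means, so these values describe order and spread only. With a prior count of 0.5 in place of 2, 3 of the 5 genes remained for *Kcnj8* and 2 of the 5 for *Kcnj15*.

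The other members could be tested. An edgeR adjusted P comes from the quasi-likelihood fit, with the Benjamini-Hochberg method over 13118 genes, and a gene is called changed where it is under 0.05. In B6 mice 2 of the 4 tested members changed, *Kcna3* being lower and *Kcnn4* higher in CD4+ cells, where 23.1% of all tested genes changed. In CD8Dual mice 1 of 4 changed (*Kcnn4*), where 28.7% of all did. In DESeq2 3 of 4 passed in B6 mice, with *Kcnk6* (adjusted P = 0.0258) in addition, and 2 of 4 in CD8Dual mice, with *Kcnk5* (adjusted P = 0.0448) in addition. The shares above are those of edgeR, and the share of all genes in DESeq2 is not given here. Over 7 alternative fits, the DESeq2 test among them, 2748 to 3305 genes were called in B6 mice and 3118 to 4126 in CD8Dual mice.

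*Kcna3* (Kv1.3; chr3:107036169-107038070, plus strand, a gene of 1 exon) was lowest in B6 CD4+ cells. The B6 CD4+ samples were at 11.4, 10.2 and 7.66 CPM and the B6 CD8+ samples at 16.5, 18.1 and 18.2 CPM. The CD8.1 samples were at 14.1, 16.4 and 16.5 CPM and the CD8.2 samples at 16.0, 20.4 and 19.1 CPM. The B6 groups did not overlap, while the CD8Dual groups did, and all CD8.1 samples were above all B6 CD4+ samples. *Kcna3* fell by 0.85 on the log2 scale from B6 CD8+ to CD4+ cells (SE 0.139, edgeR adjusted P = 0.000292). From CD8.2 to CD8.1 the log2 fold change was -0.24, with a 95% interval of -0.53 to 0.05 (edgeR adjusted P = 0.203). *Kcna3* was higher in CD8.1 cells than in CD4+ cells of B6 mice by 0.68 on the log2 scale, or 1.60-fold (SE 0.141, edgeR adjusted P = 0.00666), and 0.74 (edgeR adjusted P = 0.00310) without CD8.1 replicate 1. Between CD8.2 and B6 CD8+ cells it was 0.07, with an interval of -0.21 to 0.36. The test of whether the lineage change differed between the strains gave a log2 difference of 0.61 (edgeR adjusted P = 0.172), and 0.67 (edgeR adjusted P = 0.0430) without CD8.1 replicate 1.

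*Kcnn4* (KCa3.1; chr7:24370263-24386690, plus strand) had the most counts of any member in all 12 samples and was higher in helper-lineage cells. The B6 CD4+ samples were at 213, 209 and 204 CPM and the B6 CD8+ samples at 160, 152 and 126 CPM. The CD8.1 samples were at 183, 205 and 219 CPM and the CD8.2 samples at 167, 160 and 168 CPM. The lineage groups overlapped in neither strain. *Kcnn4* was 1.43-fold higher in B6 CD4+ than in CD8+ cells (log2 0.52, SE 0.0897, edgeR adjusted P = 0.000479) and 1.22-fold higher in CD8.1 cells than in their CD8.2 counterparts (log2 0.29, SE 0.0895, edgeR adjusted P = 0.0236). Leaving out any of 5 of the 6 CD8Dual samples ended the second call, with adjusted P of 0.0652 to 0.106, and without CD8.1 replicate 1 it was 0.00562. The strain differences of *Kcnn4* had log2 intervals of -0.24 to 0.14 in helper-lineage and -0.01 to 0.37 in cytotoxic-lineage cells, and the test of the difference between the lineage changes gave an edgeR adjusted P of 0.473.

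*Kcnk6* (TWIK-2; chr7:29221926-29232515, minus strand) was lowest in B6 CD4+ cells. It was at 0.682, 0.948 and 0.213 CPM in the B6 CD4+ samples, from 15, 22 and 5 counts, and at 1.51, 1.20 and 1.35 CPM in the B6 CD8+ samples. The CD8.1 samples were at 3.05, 2.30 and 1.57 CPM and the CD8.2 samples at 2.51, 2.00 and 1.95 CPM. All samples of the other groups were above all B6 CD4+ samples. *Kcnk6* was 3.74-fold higher in CD8.1 cells than in CD4+ cells of B6 mice (log2 1.90, SE 0.387, edgeR adjusted P = 0.00615), and the call held with each sample left out in turn (log2 1.47 to 2.35, and 1.64 without CD8.1 replicate 1). From B6 CD8+ to CD4+ cells the log2 fold change was -1.13 (SE 0.399, edgeR adjusted P = 0.0525), and with replicate number as a blocking factor the adjusted P was 0.0443. It was also under the threshold without B6 CD4+ replicate 2 (0.0236), CD8.1 replicate 1 (0.0389) or CD8.1 replicate 3 (0.0430). In CD8Dual mice it was 0.10, with an interval of -0.62 to 0.82.

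*Kcnk5* (TASK-2; chr14:20140057-20181809, minus strand), which encodes a channel opened by alkaline pH and cell swelling, passed edgeR's test in no comparison. It was at 1.14, 0.560 and 0.978 CPM in the B6 CD4+ samples and 1.39, 0.909 and 1.11 CPM in the B6 CD8+ samples. The CD8.1 samples were at 1.81, 2.61 and 1.19 CPM and the CD8.2 samples at 1.06, 0.556 and 1.14 CPM. The CD8.1 samples were above all CD8.2 and B6 CD4+ samples, CD8.1 replicate 3 by little. The log2 fold change was 0.99 over CD8.2 (SE 0.364, edgeR adjusted P = 0.0543) and 1.07 over B6 CD4+ cells (SE 0.370, edgeR adjusted P = 0.0689). Without CD8.1 replicate 1 the adjusted P was 0.0687 and 0.0741, and both comparisons were called without CD8.1 replicate 3 (0.0258 and 0.0385). Both were also called by edgeR with no filter on counts (0.0341 and 0.0309), so the lack of a call holds for the main fit.

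Between the strains, 2 of the 4 tested members were higher in CD8.1 cells than in CD4+ cells of B6 mice (*Kcna3* and *Kcnk6*), where 12.8% of all genes changed. In CD8.2 against B6 CD8+ cells 0 of 4 changed by edgeR's test, where 7.94% of all genes changed. There 0 had an unadjusted P under 0.05 and 0 passed in DESeq2. For the difference between the lineage changes, 0 of 4 passed in edgeR, where 1.87% of all genes passed. In DESeq2 0 of 4 passed, where 410 genes did. By edgeR 3 had an unadjusted P under 0.05 (*Kcna3*, *Kcnk5* and *Kcnk6*). The share of all genes at an unadjusted P is not given here, so that count is a description. The edgeR shares in these comparisons stand for 1674, 1042 and 245 genes. Without CD8.1 replicate 1 the numbers were 2958, 1913 and 1356. They fell to 765 (without B6 CD4+ replicate 1), 431 (without B6 CD8+ replicate 2) and 165 (without CD8.2 replicate 3). The helper-lineage strain comparison also moved 9 of 10 regulatory T cell markers, 7 of 10 memory and activation markers and 4 of 7 tested myeloid markers upward, and no T cell identity gene of 10. The summed myeloid markers were at 4.37 to 9.31 CPM in B6 CD4+ and 16.2 to 20.6 in CD8.1 samples, led by *Lyz2* (3.76 and 11.5 CPM), and *Cd14* was at 0.0142 and 0.0159 CPM. Of the B cell markers, whose sums are given above, 2 of 8 were higher in CD8.1. Myeloid and B cells lack TCRβ, on which the samples were sorted. The part of any such cells in the *Kcna3* and *Kcnk6* differences was not tested.

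Per length of exon, as RPKM (CPM divided by kilobases of exon), the order of the members was the same at the top in all groups. *Kcnn4* was at 40.8 ± 0.825 RPKM in B6 CD4+, 39.5 ± 3.60 in CD8.1, 28.5 ± 3.55 in B6 CD8+ and 32.3 ± 0.845 in CD8.2 cells (SD, n = 3 each). *Kcna3* followed at 5.13, 8.22, 9.24 and 9.73 RPKM. *Kcnj8* came next in B6 CD8+ cells at 1.28 RPKM, ahead of *Kcnk5* (0.334) and *Kcnk6* (0.326), which did not differ beyond their spread. In CD8.2 cells *Kcnj8* (0.499 ± 0.0765 RPKM) and *Kcnk6* (0.519 ± 0.0746) did not differ beyond their spread, and *Kcnk5* followed at 0.270. In CD8.1 cells *Kcnk6* (0.556) and *Kcnk5* (0.549) came next and were within their spread, followed by *Kcnj15* (0.161) and *Kcnj8* (0.0779). In B6 CD4+ cells *Kcnk5* (0.262 ± 0.0875) and *Kcnk6* (0.148 ± 0.0897) were within their spread, and *Kcnj15* was at 0.0479.

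**Figure D2:**
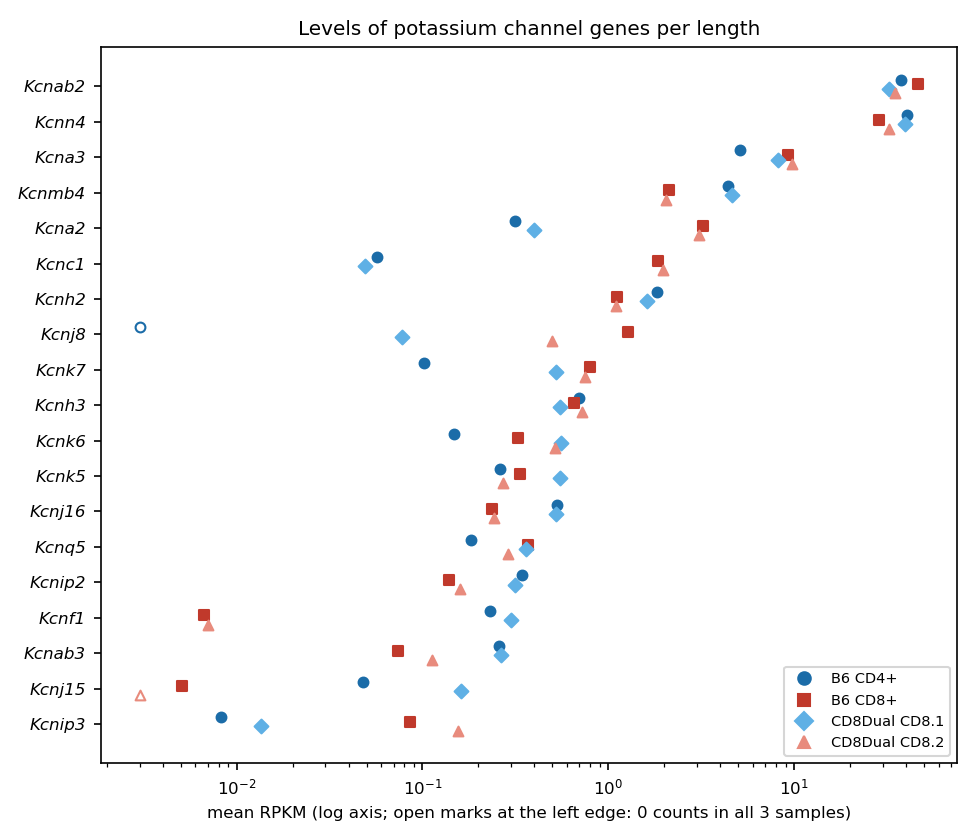
Mean RPKM of 19 of the 20 potassium channel genes with enough counts to be tested, on a log axis, by group (1 mark per group). Open marks at the left edge stand for 0 counts in all 3 samples of a group and have no place on the log scale. *Kcnn4* and *Kcnab2* stand at the top in all 4 groups, and the marks of *Kcnc1*, *Kcna2* and *Kcnj8* for helper-lineage cells lie far to the left of those for cytotoxic-lineage cells.

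Among the wider list of potassium channel genes, 18 of 94 could be tested. Of the 76 that could not, 41 had 0 counts in all 12 samples, and no sample held more than 11 counts of any. The mean was above the limit of the filter, 0.443 CPM, in all 4 groups for 13 of the 18 tested genes. The other 5, among them *Kcnip3*, *Kcnab3*, *Kcnf1* and *Kcnk7*, entered through 1 to 3 groups, so their share among the calls, and their own tests where the low groups are compared, are partly set by the filter. In B6 mice 13 of 18 changed, where 23.1% of all tested genes did, 6 higher and 7 lower in CD4+ cells, and 9 of the 13 that were above the limit in all groups did. By the fold limit of the study (over 5, at an unadjusted P under 0.05), 5 of 18 passed in B6 and 4 in CD8Dual mice, where 3.29% and 3.32% of all tested genes did. Of the 13 genes above the filter's limit in all groups, 2 passed in each strain (*Kcna2* and *Kcnc1*). By the same limit 0 of 18 passed between the strains in either lineage, where 0.61% and 0.579% did. In CD8Dual mice 9 of 18 changed, where 28.7% of all did, 6 higher and 3 lower in CD8.1 cells, and 6 of the 13 above the limit in all groups did. Without CD8.2 replicate 1 the count fell from 9 to 5. The count over all genes also moved, from 3771 to between 2632 and 5013 with each sample left out in turn. The 9 channel genes were 9 of the 13 called in B6 mice, and all 9 had the same direction in both strains. Of these, *Kcnab3*, *Kcnf1* and *Kcnip3* passed the filter through some groups only, so their agreement is partly set by it. The other 6 were above the limit in all groups. No such overlap is given here for all tested genes, so this one is a description. The median log2 fold change of the 18 was -0.11 in B6 and 0.31 in CD8Dual mice, against -0.0011 and -0.0047 over all tested genes.

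*Kcnc1* and *Kcna2*, of the voltage-gated channels, had the largest differences in both strains among the 13 genes above the filter's limit in all groups. *Kcnc1*, which encodes Kv3.1, a channel long known from mouse CD8+ cells, was at 16.5, 17.7 and 18.3 CPM in B6 CD8+ and 16.2, 22.2 and 17.8 CPM in CD8.2 samples. It was at 0.455, 0.733 and 0.425 CPM in B6 CD4+ and 0.382, 0.531 and 0.475 CPM in CD8.1 samples. The groups of the 2 lineages lay far apart in both strains. The log2 fold change of *Kcnc1*, helper over cytotoxic lineage, was -5.01 in B6 (edgeR adjusted P = 4.25e-11) and -5.32 in CD8Dual mice (5.08e-11).

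*Kcna2*, which encodes Kv1.2, was at 38.7 ± 2.71 CPM in B6 CD8+ and 36.5 ± 2.53 in CD8.2 cells, against 3.77 ± 1.12 in B6 CD4+ and 4.77 ± 0.677 in CD8.1 cells (SD, n = 3 each). Its log2 fold change was -3.36 in B6 (edgeR adjusted P = 2.77e-10) and -2.94 in CD8Dual mice (1.33e-09). *Kcna2* exceeded *Kcna3* in CPM in cytotoxic-lineage cells but not per length, at 3.25 against 9.24 RPKM in B6 CD8+ cells. *Kcnf1*, which encodes an electrically silent Kv subunit, was higher in helper-lineage cells, with 21, 26 and 29 counts in B6 CD4+ and 28, 43 and 23 in CD8.1 samples, against 0, 0 and 2 in B6 CD8+ and 1, 0 and 2 in CD8.2 samples. Its low groups thus held 2 and 3 counts in all. The ratio of summed counts, helper to cytotoxic lineage, was 40.2 in B6 mice with a 95% counting interval of 10.8 to 338, and 36.7 in CD8Dual mice with an interval of 12.2 to 181. The fitted log2 fold changes, which depend on the prior count at such levels, were 5.07 and 5.03 (edgeR adjusted P = 4.87e-05 and 2.48e-05). *Kcnf1* passed the filter through its helper-lineage groups alone, so these P values are partly fixed by the filter and are given as a description. In B6 mice it was 4.47 without CD8+ replicate 2 and 7.72 without CD8+ replicate 3, which held the only 2 counts of its group.

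Among the other pore subunits, *Kcnh2*, which encodes hERG, was higher in helper-lineage cells by 0.73 on the log2 scale in B6 mice and 0.56 in CD8Dual mice (edgeR adjusted P = 0.00508 and 0.0227). Its CD8Dual call was lost without CD8.1 replicate 2 or 3 (0.116 and 0.0608) and without CD8.2 replicate 1 or 3 (0.0525 and 0.108). *Kcnj16*, which encodes the inward rectifier Kir5.1, was higher by 1.15 and 1.10 (edgeR adjusted P = 0.0101 and 0.0118), at 2.08 CPM in B6 CD4+ and 2.07 in CD8.1 against 0.935 in B6 CD8+ and 0.957 in CD8.2 cells. The B6 call of *Kcnj16* was lost without CD4+ replicate 1 (0.0588) and the CD8Dual call without CD8.2 replicate 1 (0.0547). *Kcnj16* thus had the direction of *Kcnj15* in both strains.

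Of the accessory subunits, *Kcnmb4*, a beta subunit of the large-conductance calcium-activated channel, was at 14.6 and 15.4 CPM in B6 CD4+ and CD8.1 cells and 7.09 and 6.81 in B6 CD8+ and CD8.2 cells. It was higher in helper-lineage cells by 1.04 and 1.17 on the log2 scale (edgeR adjusted P = 2.07e-06 and 7.03e-07). *Kcnab2*, a beta subunit of Kv1 channels (37.5 RPKM in B6 CD4+ cells, beside 40.8 RPKM for *Kcnn4*), fell by 0.31 on the log2 scale from B6 CD8+ to CD4+ cells (edgeR adjusted P = 0.00963) and had a log2 fold change of -0.11 in CD8Dual mice (0.340). The B6 call was lost without CD8+ replicate 2 (0.0513). *Kcnab3*, of the same family, was higher in helper-lineage cells by 1.81 and 1.35 (edgeR adjusted P = 0.0129 and 0.0413), from at most 19 counts in any sample. It passed the filter through the helper-lineage groups alone (0.742 and 0.756 CPM, against 0.211 in B6 CD8+ and 0.323 in CD8.2 cells), so its tests too are partly fixed by the filter. *Kcnip3*, which encodes a calcium-binding protein of Kv4 channels, had log2 fold changes of -3.12 and -3.40 (edgeR adjusted P = 0.0376 and 0.00903), with 1, 0 and 1 counts in B6 CD4+ and 12, 1 and 8 in B6 CD8+ samples. *Kcnip3* passed the filter through CD8.2 cells alone, where it is highest (0.552 CPM), and the same limit holds for its tests. The ratio of its summed counts, cytotoxic to helper lineage, was 9.92 in B6 mice (counting interval 2.42 to 87.3) and 11.4 in CD8Dual mice (3.62 to 57.5). With the replicate number as a block shared by the strains, the adjusted P was 0.0553 for *Kcnip3* in B6 mice and 0.0548 for *Kcnab3* in CD8Dual mice. The B6 call of *Kcnip3* was also lost without any of the B6 CD4+ or CD8.2 samples and without B6 CD8+ replicate 1 or 3 (adjusted P up to 0.167), and its CD8Dual fold change was -4.29 without CD8.1 replicate 1. The CD8Dual call of *Kcnab3* held without B6 CD8+ replicate 3 or CD8.2 replicate 2 (log2 2.07 without the latter) and was lost without any of the other 10 samples (0.0531 to 0.223), in DESeq2 (0.0551), with no filter (0.0881) and with only the groups compared (0.0742). Its B6 call was lost without CD8+ replicate 1 or 2 (0.0597 and 0.0596). *Kcnh3* and *Kcnip2* passed the test in no comparison. *Kcnab3*, *Kcnmb4* and *Kcnq5* share exon bases with a gene on the other strand, so reads of the partners cannot be told apart without strand, and *Kcnab2* shares 125 exon bases with Gm16334 on its own strand.

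**Figure D3:**
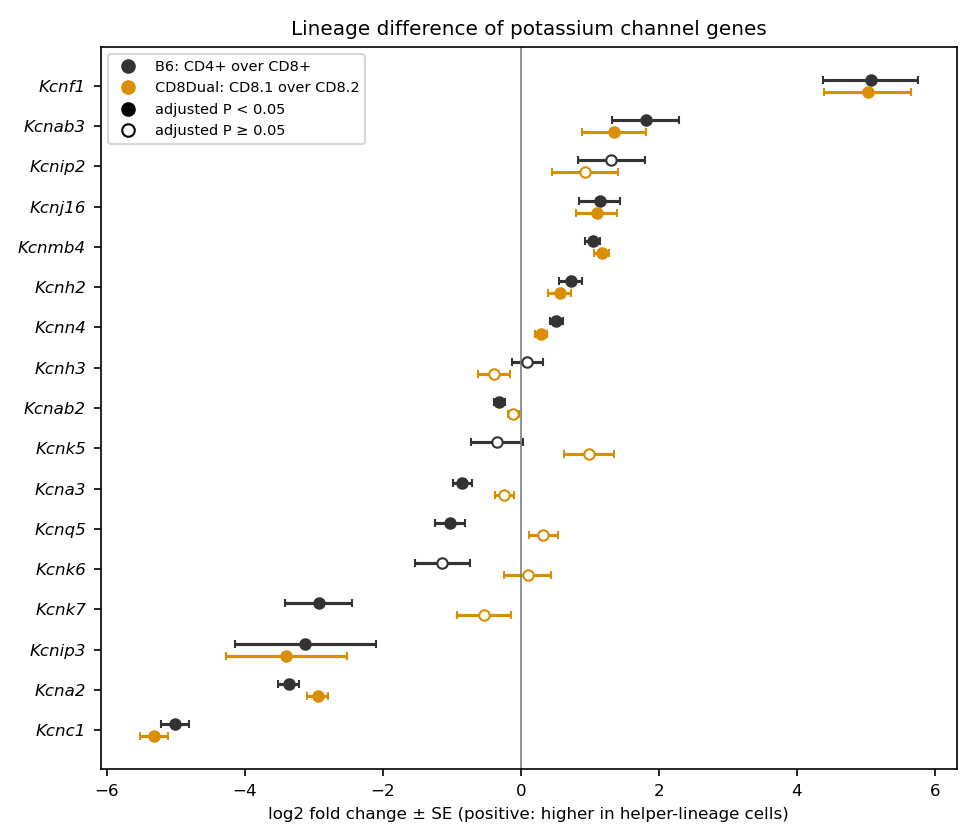
Log2 fold change ± SE of 17 of the 18 tested potassium channel genes, helper-lineage over cytotoxic-lineage cells, in B6 (dark) and CD8Dual mice (orange), 3 samples per group, with filled points for an adjusted P under 0.05. *Kcnc1* lies at -5.01 and -5.32 and *Kcnf1* at 5.07 and 5.03, the latter gene with at most 3 counts in all on its low side, while *Kcnk7*, *Kcnq5*, *Kcnk6* and *Kcnk5* show the largest gaps between the strains.

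Between the strains, 4 of the 18 genes were higher in CD8.1 cells than in CD4+ cells of B6 mice, where 6.94% of all tested genes were higher, and 0 were lower. The 4 genes were *Kcna3* and *Kcnk6*, given above, with *Kcnk7* and *Kcnq5*. Of the 13 genes above the filter's limit in all groups, which do not include *Kcnk7*, 3 changed. *Kcnk7*, which encodes a K2P subunit, held 3, 2 and 6 counts in the B6 CD4+ samples and 22, 18 and 13 in CD8.1, or 0.159 and 0.821 CPM, beside 1.26 CPM in B6 CD8+ and 1.17 in CD8.2 cells. It was higher in CD8.1 by 2.32 on the log2 scale (SE 0.510, edgeR adjusted P = 0.00930, and 0.0165 without CD8.1 replicate 1). B6 CD4+ cells were the 1 group in which *Kcnk7* lay under the filter's limit, so this test is partly fixed by the filter. *Kcnq5*, which encodes a subunit of the slow M-type current, was at 1.64, 1.47 and 1.11 CPM in the B6 CD4+ samples and 3.25, 2.52 and 2.56 CPM in CD8.1, beside 2.58, 2.87 and 3.13 CPM in B6 CD8+ and 2.09, 2.11 and 2.42 CPM in CD8.2. It was higher in CD8.1 cells than in CD4+ cells of B6 mice by 0.98 (SE 0.222, edgeR adjusted P = 0.0107), and by 0.85 without CD8.1 replicate 1 (0.0190), but the call was lost with only the groups compared (0.0662). Its log2 fold change between lineages was -1.03 in B6 (edgeR adjusted P = 0.00270) and 0.32 in CD8Dual mice (0.275), and the difference of 1.35 passed the test (SE 0.305, edgeR adjusted P = 0.0317), but not with replicate number as a blocking factor (adjusted P = 0.0645 within strains and 0.0640 shared). Without CD8.1 replicate 1 it was 1.21 (0.0226), and the call was lost without any of 8 other samples (0.0507 to 0.0978), namely B6 CD4+ replicates 2 and 3 and all B6 CD8+ and CD8.2 samples. Markers of other cell states passed the same test of the difference between lineage changes. They were 6 of 10 memory and activation markers, 5 of 10 regulatory T cell markers and 2 of 7 NK markers, against 1.87% of all tested genes, and 0 of 8 B cell and 0 of 7 myeloid markers did. Their part in the *Kcnq5* difference was not tested. For *Kcnk7* the difference was 2.39 (edgeR adjusted P = 0.0758). In the cytotoxic lineage *Kcnab2* alone of the 18 changed, falling by 0.41 on the log2 scale from B6 CD8+ to CD8.2 cells (260 to 195 CPM, edgeR adjusted P = 0.00606), where 4.66% of all tested genes were lower.

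**Figure D4:**
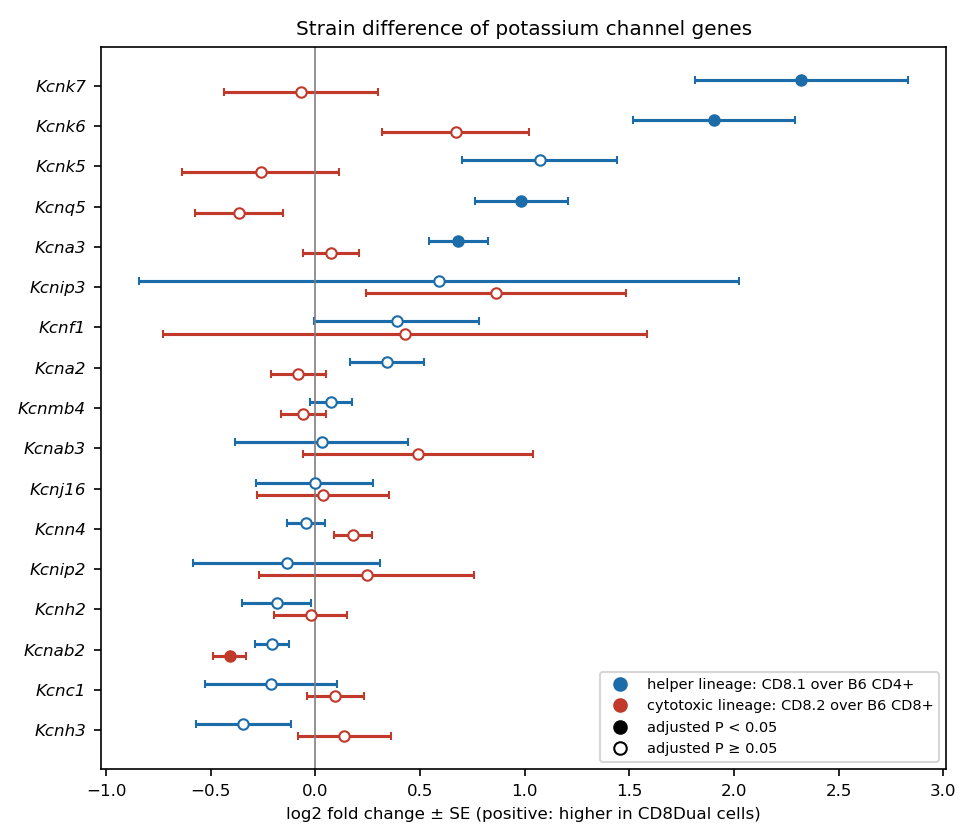
Log2 fold change ± SE of 17 of the 18 genes between strains, in helper-lineage (CD8.1 over B6 CD4+, blue) and cytotoxic-lineage cells (CD8.2 over B6 CD8+, red), 3 samples per group, with filled points for an adjusted P under 0.05. *Kcnk7* (2.32), *Kcnk6* (1.90), *Kcnq5* (0.98) and *Kcna3* (0.68) are the filled blue points and *Kcnab2* (-0.41) the filled red one.

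*Kcna3* and *Kcna2* are neighbours on chromosome 3, with 63075 bases between them, and the 4 tested genes within 200 kb of *Kcna3*, *Kcna2* among them, were all lower in helper-lineage cells of both strains by fitted value. The lincRNA gene A930002I21Rik, 52809 bases from *Kcna3*, had log2 fold changes of -3.29 in B6 and -2.99 in CD8Dual mice, close to those of *Kcna2*. AI504432, a lincRNA gene 1433 bases downstream of *Kcna3* on the same strand, had -0.61 and -0.63, and Gm27008, an antisense gene that spans *Kcna3* without shared exon bases, had -2.24 and -2.50. All of these passed the test in both strains, while *Kcna3* passed in B6 mice alone.

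**Figure D5:**
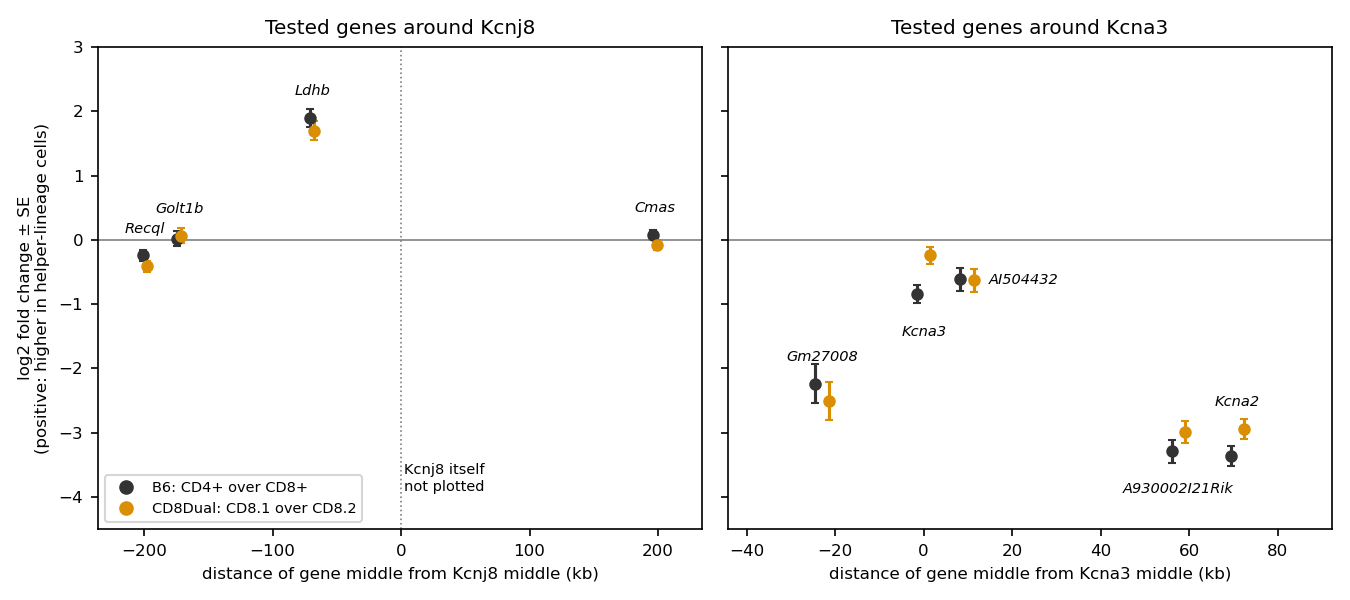
Log2 fold change ± SE, helper-lineage over cytotoxic-lineage cells, of tested genes within 200 kb of *Kcnj8* (left) and of *Kcna3* (right), by distance of the gene middle in kb, in B6 (dark) and CD8Dual mice (orange). *Ldhb* lies at 1.90 and 1.70 on the left, and A930002I21Rik and *Kcna2* near -3 on the right, with *Kcna3* at -0.85 and -0.24.

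Genes that work with these channels changed in part. The counts that follow stand beside 23.1% of all tested genes changed in B6 mice, 28.7% in CD8Dual mice and 12.8% between the strains in the helper lineage. The Na+/K+ pump builds the K+ gradient, and 4 of 6 tested pump genes were higher and 1 lower in B6 CD4+ cells, and 5 of 6 higher in CD8.1 cells, with median log2 fold changes of 0.38 and 0.64 (medians over all tested genes are given above). *Atp1b1*, a beta subunit, was higher by 0.51 and 0.66 on the log2 scale (edgeR adjusted P = 0.000282 and 3.32e-05). *Atp1b3* was the most abundant, at 1146, 1153, 968 and 987 CPM in B6 CD4+, CD8.1, B6 CD8+ and CD8.2 cells.

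Of 14 tested calcium entry genes, 3 were higher and 4 lower in B6 CD4+ cells, and 4 higher and 4 lower in CD8.1 cells than in their CD8.2 counterparts, with medians of 0.05 and -0.07. *Orai1*, the CRAC channel pore, had log2 fold changes of 0.62 and 0.65 in B6 and CD8Dual mice (edgeR adjusted P = 0.000872 and 0.000579), and *Orai2* -0.41 and -0.55 (0.000795 and 5.65e-05). *P2rx7*, an ATP-gated channel, was higher by 1.49 and 2.20. *Cracr2a*, a regulator of the CRAC channel, was lower, at 14.6 against 36.0 CPM in B6 mice and 10.3 against 24.5 CPM in CD8Dual mice. *Saraf*, which restrains store-operated entry, was the most abundant, at 616, 612, 828 and 984 CPM in the order above. *Stim1*, the calcium sensor, passed in no comparison. Between the strains 6 of 14 were lower in CD8.1 cells than in CD4+ cells of B6 mice (median -0.03), among them the IP3 receptor genes *Itpr1* (-0.71) and *Itpr2* (-0.58), and 1 was higher (*P2rx7*, 0.98).

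Of 10 calcium clearance genes, 2 were higher and 1 lower in B6 CD4+ cells and 5 were higher in CD8.1 cells than in their CD8.2 counterparts, with medians of 0.05 and 0.17. The share in B6 mice was thus near that of all tested genes. *Mcu*, the pore of the mitochondrial uniporter, was higher in both strains (log2 0.99 and 0.82). *Atp2b4*, a plasma membrane calcium pump, followed the pattern of *Kcnk6*, at 3.67 CPM in B6 CD4+, 11.7 in CD8.1, 9.95 in B6 CD8+ and 10.9 in CD8.2 cells, and its strain difference in helper-lineage cells was 1.67 (edgeR adjusted P = 2.00e-05). *Atp2a3*, an endoplasmic reticulum pump, was the most abundant at 333 to 447 CPM. Of 10 calcineurin and NFAT genes, 1 was higher and 3 were lower in B6 CD4+ cells, and 2 higher and 3 lower in CD8.1 cells (medians -0.03 and -0.02). *Rcan3*, a calcineurin inhibitor, was higher by 1.63 and 1.40 on the log2 scale, and *Ppp3cc* (-0.88 and -0.43) and *Ppp3ca* (-0.51 and -0.35), which encode catalytic subunits, were lower.

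Of 11 tested regulators of KCa3.1 and Kv1.3, 2 were higher (*Kcnab3* and *Pik3c2b*) and 1 lower (*Kcnab2*) in B6 CD4+ cells, and 4 were higher and 1 lower in CD8.1 cells than in their CD8.2 counterparts, with medians of 0.14 and 0.05. The share in B6 mice was again near that of all tested genes. *Pik3c2b*, a lipid kinase gene whose product promotes KCa3.1 activity, was higher by 0.81 and 1.24 on the log2 scale (edgeR adjusted P = 0.0222 and 0.00222), and *Mtmr6*, whose phosphatase product opposes it, fell by 0.24 from CD8.2 to CD8.1 cells (edgeR adjusted P = 0.0218). Of 17 anion channel and volume genes, 2 were higher (*Stk39* among them) and 2 lower (*Slc12a7* and *Lrrc8b*) in B6 CD4+ cells, and 3 were higher and 2 lower in CD8.1 cells (medians 0.04 and -0.04), shares near those of all tested genes in both strains. *Slc12a7*, which encodes a K+-Cl- cotransporter, had log2 fold changes of -0.61 in B6 and -0.64 in CD8Dual mice. *Wnk1*, a kinase gene that acts on such cotransporters, was the most abundant gene of that list, at 328 to 459.8 CPM.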

How the data were processed

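The authors sequenced RNA of sorted LN T cells, aligned reads to mm10 with STAR and deposited raw counts per gene from RSEM, whole numbers with no normalization. The versions of these tools are not given in the sources used here. All columns matched a sample by name, 0 being left over. The 7 members and all gene lists were chosen with earlier results of these data known.

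The analysis used edgeR 4.0.16 under R 4.3.3 (filterByExpr, TMM, glmQLFit, glmQLFTest). The filter left 13118 of 49585 genes, and all 12 samples entered 1 model with a mean per group. The biological coefficient of variation was 11.2%. Total counts were 18667474 to 37110502 per sample. Genes were called at a Benjamini-Hochberg adjusted P under 0.05. The 5 comparisons were the lineages within each strain, the strains within each lineage and the interaction. CPM used TMM library sizes, and RPKM the union of GENCODE M21 exons (49326 genes matched). Floors are 3 counts and intervals are 95% exact conditional Poisson. In simulated counts of 13118 genes the fit recovered 74% of 2-fold and 97% of 8-fold changes in the B6 lineage comparison, with 13 unchanged genes called.

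Replicates differed by a chi-square per gene of 8.48 to 83.7, so none was a repeat deposit. B6 CD4+ and CD8+ samples of the same number deviated together (correlations 0.126, 0.138 and 0.257), so the numbers in the labels may pair them. Samples of CD8.1 and CD8.2 of the same number did not all do so (-0.0039, 0.0905 and 0.119). The main fit used no pairing, so its P values leave any pairing out. Replicate number entered as a block among the alternatives only. Alternatives were DESeq2 1.42.0 (size factors, or its Wald test), other filters, only the groups compared, replicate blocks, the study's limits (a fold over 5 at an unadjusted P under 0.05), each sample left out, transcript lengths and another prior count.

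Genes were named by rule: the members, other potassium channel genes called or at 1 CPM in a group, up to 4 genes with the smallest P of each list with its most abundant gene, neighbours, the 5 genes most alike and lineage genes. *Orai1*, *Stim1* and the defining markers of other cell types were named outside it, after their values were seen. Some genes that the rule names are not reported here. Figures used matplotlib 3.10.9 (Python 3.11.15).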

Additional observations from a re-analysis of the deposited data

Results flagged for a closer look

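The lineage change of *Kcnq5* differed between the strains by the interaction test, by 1.35 on the log2 scale (edgeR adjusted P = 0.0317, with a range of 0.00876 to 0.0978 over 18 alternatives, 8 of which kept the call). Its level was lower in B6 CD4+ than in CD8+ T cells with no overlap, while all 3 CD8.1 samples were above all 3 CD8.2 samples.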

How the results depend on the processing

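Each of the 43 results for single genes was recomputed under its alternatives, which gave 791 values. Of these, 727 kept the direction and side of the threshold, 48 lost and 14 gained the call, and 2 changed sign, both without CD8.1 replicate 1: *Kcnk6* in CD8Dual mice (-0.17, with a range of -0.17 to 0.30 over the samples left out) and *Kcnn4* in the helper-lineage strain comparison (0.011, with a range of -0.11 to 0.011). Neither was called before or after. By the study's limits, 5 potassium channel genes were called in B6 mice, 4 in CD8Dual mice and 0 and 0 between the strains in the helper and cytotoxic lineage. Of the 18 genes, with each sample left out in turn, 11 to 15 were called in B6 mice, 5 to 9 in CD8Dual mice (5 without CD8.2 replicate 1), 4 to 5 and 1 to 1 between the strains and 0 to 2 for the interaction. The interaction gave 2 calls in DESeq2 and with no filter, and 0 with either replicate block. The replicate block also ended the B6 call of *Kcnip3* (adjusted P = 0.0553, shared by the strains) and the CD8Dual call of *Kcnab3* (0.0548), and gave a B6 call for *Kcnk6* (0.0443 within strains and 0.0398 shared). Among the 43 results it changed no call beyond these, and it was not fitted within strains for the strain comparisons, where the block is nested in strain. *Kcnk6* in B6 mice was also called in DESeq2 (adjusted P = 0.0258) and with no filter (0.0110), and *Kcnk5* in CD8Dual mice in DESeq2 (0.0448), with no filter (0.0341) and at a mean of 1 CPM (0.0466). Between the strains in the helper lineage, *Kcnk5* was called with no filter (log2 1.06, edgeR adjusted P = 0.0309). Over all genes, calls between the strains moved from 674 to 2958 in the helper lineage, 2958 being without CD8.1 replicate 1, and from 431 to 2515 in the cytotoxic lineage, and those of the interaction from 165 to 1356. With the longest transcript as length, *Kcnn4* was at 57.4 RPKM in B6 CD4+, 55.6 in CD8.1, 40.1 in B6 CD8+ and 45.4 in CD8.2 cells. The causes were not tested. *Kcnj8*, *Kcnj15* and *Kcnk6* rest on at most 98, 28 and 67 counts a sample, which limits their precision.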
